A study of Homo sapiens and Mus musculus with 25 samples.

Results

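Human chromosome 19 carries the densest collection of zinc finger genes in the genome, arranged in clusters along both arms. The genes described here are the protein-coding genes of GENCODE release 44 on chromosome 19 (hg38) whose symbol is ZNF followed by digits. There are 249 of them among 19962 protein-coding genes. By the position of the transcription start site (TSS) they fall into 4 groups, with 48 genes under 15 Mb (2.82 to 14.69 Mb), 37 genes from 15 to 25 Mb near the centromere (19.67 to 24.09 Mb), 64 genes from 30 to 50 Mb (30.37 to 48.27 Mb) and 100 genes over 50 Mb (50.03 to 58.48 Mb). The rule uses name and position and no measured value, although the choice of this family was made with earlier results of these data known.

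Most proteins of this family join a KRAB domain to a row of zinc fingers. The fingers read a DNA sequence, often one within a transposable element, and the KRAB domain recruits TRIM28 (KAP1), which brings the H3K9 methyltransferase SETDB1 and HP1 proteins to form silent chromatin. The family's own genes are known to carry H3K9me3 over the 3′ part of the gene, which encodes the fingers, while their promoters can stay active. H3K4me3 is the usual mark of active or poised promoters, H3K4me2 spreads around them, H3K4me1 marks their flanks and enhancers, and H3K27me3 is the Polycomb mark of repressed chromatin.

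The chromatin came from K562, an established human erythroid-like leukaemia line. It was examined by ICeChIP-seq, a chromatin immunoprecipitation in which barcoded modified nucleosomes are spiked in to calibrate each antibody. The title of the H3K27me3 library does not name this method, so such calibration is not assumed for it. The peak lists cover 17 antibodies against methylated H3K4 (5 for H3K4me1, 4 for H3K4me2 and 8 for H3K4me3), 1 against H3K9me3 and 1 against H3K27me3, and 3 further lists that the authors corrected from 4 Abcam antibodies. All libraries are from the same cell line and each antibody has 1 library, so the antibodies of one target stand in for replicates, and p-values measure the spread between antibodies. The remaining samples, 2 inputs of K562 and 4 from mouse embryonic stem cells, come with no peak list and are not analysed here. A peak list says where signal passed the authors' threshold, not how much of a mark is there, and the read depth behind it is not known.

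The lists differ greatly in extent. On chromosome 19, peaks covered from 2.55% of the chromosome (EpiGentek A-4033-050, H3K4me3) to 80.8% (Active Motif 39635, H3K4me1, with a median peak of 23431 bases), and the H3K4me3 list of Abcam ab8580 covered 45.5%. The H3K9me3 list covered 95.4% and the H3K27me3 list 63.5%. The TSS windows of the erythroid genes GATA1, TAL1, KLF1, LMO2, NFE2, HBG1 and TFRC held a peak in at least 5 of the 8 H3K4me3 lists. None of 8 genes of lymphoid, liver or neural cells passed the same count, although 6 of these 8 had H3K4me1 in at least 3 of 5 lists.

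The promoters of the 4 position groups differed in sequence, and those near the centromere were the most alike. Promoters of 300 bases (250 before the TSS and 50 from it on) were compared by alignment for every pair of genes in a group. The median identity was 74.0% over the 666 pairs from 15 to 25 Mb, against 50.0% under 15 Mb, 46.7% from 30 to 50 Mb and 46.0% over 50 Mb. For 34 of the 37 genes from 15 to 25 Mb the nearest relative in the group was more than 70% identical. The sequence CCAAT (searched on both strands) was present in 36 of these 37 promoters, or 97.3%, against 36.02% of all protein-coding promoters, at a median of 54 bases before the TSS. The sequence CCGGAAG, the core to which ETS family factors bind, was present in 25 of 37 (67.6%), against 14.1% of all, in each case as its reverse complement. Over 50 Mb, 59 of 100 promoters held CCGGAAG and 47 held CCAAT. Under 15 Mb the counts were 7 and 33 of 48, and from 30 to 50 Mb they were 20 and 16 of 64. A match is a description of the letters and not a bound site. The 250 bases before the TSS are shown for 4 genes, read from hg38 on the strand of the gene, with CCAAT and CCGGAAG (either orientation) in capitals. They lie at chr19:19900696-19900945 (ZNF93, plus strand), chr19:23395472-23395721 (ZNF91, minus), chr19:11924857-11925106 (ZNF700, plus) and chr19:43619630-43619879 (ZNF428, minus), each directly upstream of the first exon of the canonical transcript. They are shown because ZNF93 (TSS peak in 17 of 17 H3K4 lists) and ZNF91 (11 of 17) are close relatives with unequal H3K4 methylation, and ZNF700 and ZNF428 (17 of 17 each) stand for groups farther away.
ZNF93: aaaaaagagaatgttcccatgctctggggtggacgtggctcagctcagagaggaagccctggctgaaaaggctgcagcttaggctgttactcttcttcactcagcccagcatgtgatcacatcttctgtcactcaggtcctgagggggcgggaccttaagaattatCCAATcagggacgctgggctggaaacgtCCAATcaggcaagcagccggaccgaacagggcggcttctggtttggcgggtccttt
ZNF91: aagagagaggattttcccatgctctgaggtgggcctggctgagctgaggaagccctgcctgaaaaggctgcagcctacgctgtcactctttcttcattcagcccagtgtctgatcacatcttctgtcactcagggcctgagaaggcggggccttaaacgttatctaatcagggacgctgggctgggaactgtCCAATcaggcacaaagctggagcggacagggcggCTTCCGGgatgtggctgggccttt
ZNF700: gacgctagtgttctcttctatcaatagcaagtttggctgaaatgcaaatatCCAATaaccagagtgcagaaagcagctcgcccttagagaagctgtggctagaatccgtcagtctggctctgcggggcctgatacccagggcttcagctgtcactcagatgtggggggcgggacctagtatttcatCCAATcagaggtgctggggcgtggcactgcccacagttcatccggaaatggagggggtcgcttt
ZNF428: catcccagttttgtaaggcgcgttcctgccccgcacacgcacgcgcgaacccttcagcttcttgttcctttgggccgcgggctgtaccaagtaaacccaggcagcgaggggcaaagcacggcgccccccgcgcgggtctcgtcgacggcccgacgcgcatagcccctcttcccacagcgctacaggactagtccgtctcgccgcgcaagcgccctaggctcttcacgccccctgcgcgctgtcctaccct

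Over 300 bases the ZNF93 promoter was 84.7% identical to that of ZNF91. CpG dinucleotides were few near the centromere, with a median of 10 per 300 bases against 18, 20 and 23.5 in the groups under 15 Mb, 30 to 50 Mb and over 50 Mb, and 23 over all genes.

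The first question was how often the start sites of the zinc finger genes carried H3K4 methylation in each group. A TSS window was the TSS with 1 kb on either side, and it was counted as holding a peak when 1 base or more overlapped. The genes from 15 to 25 Mb had the lowest share of windows with a peak in 17 of 17 H3K4 lists. In the H3K4me1 lists their shares were 43.2% with Active Motif 39635, 45.9% with Abcam ab8895, 62.2% with Thermo Fisher 710795, 70.3% with antibody 5326 BF of Cell Signaling Technologies and 75.7% with EpiGentek A-4031-050. Under 15 Mb, ab8895 gave 93.8% and the other 4 each gave 95.8%. The 2 ranges did not overlap. The mean H3K4me1 share was 59.5% ± 14.4 (SD, n = 5 antibodies) from 15 to 25 Mb, against 95.4% ± 0.93 under 15 Mb, 88.4% ± 6.1 from 30 to 50 Mb and 88.0% ± 6.9 over 50 Mb. Over all protein-coding genes it was 78.0% ± 5.2.

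The group from 15 to 25 Mb was also lowest for the other methyl states, with smaller gaps for H3K4me3. For H3K4me2 the shares from 15 to 25 Mb were 59.5% (Abcam ab7766), 81.1% (Cell Signaling Technologies 9725), 67.6% (EMD Millipore 05-1338) and 64.9% (Thermo Fisher 710796), a mean of 68.2% ± 9.2 (SD, n = 4 antibodies). The other groups had 94.3% ± 2.0 under 15 Mb, 96.9% ± 4.4 from 30 to 50 Mb and 87.5% ± 4.7 over 50 Mb, and all protein-coding genes had 76.0% ± 7.1. For H3K4me3 the lowest, median and highest of the 8 lists were 45.9%, 63.5% and 86.5% from 15 to 25 Mb, and 64.6%, 88.5% and 100% under 15 Mb. Here the ranges overlapped across antibodies, while within each list the pericentromeric group remained lowest. The H3K4me3 means were 66.9% ± 12.7 from 15 to 25 Mb, 85.2% ± 11.8 under 15 Mb, 85.7% ± 9.4 from 30 to 50 Mb and 78.1% ± 11.1 over 50 Mb (SD, n = 8 antibodies). All protein-coding genes had 54.9% ± 13.8, so even the lowest group mean for H3K4me3 lay above theirs. A share over chosen genes was described and not tested. Windows that are not unique in the genome can lose reads, so the share of 50-base words found once in hg38 was counted. Its median was 94.9% from 15 to 25 Mb, 96.8% under 15 Mb, 100% from 30 to 50 Mb and 99.1% over 50 Mb. Among genes whose TSS window was at least 90% unique, the H3K4me3 share was 67.0% ± 13.4 in the 33 genes from 15 to 25 Mb and 85.4% ± 11.0 in the 42 genes under 15 Mb.

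**Figure D1:**
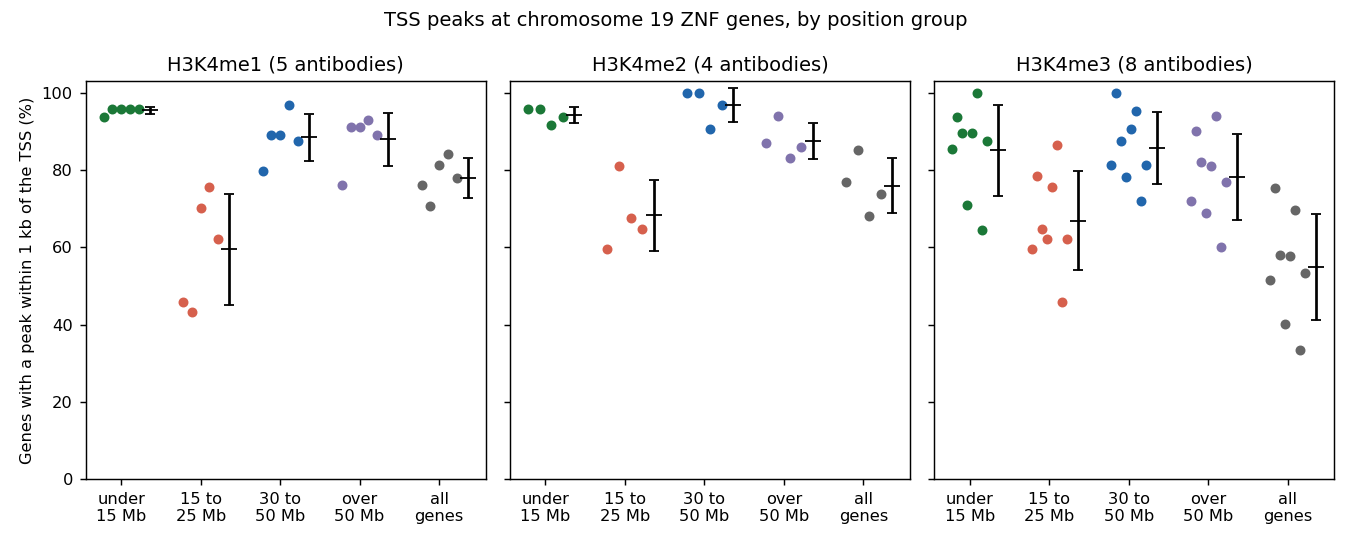
Percent of genes with a peak within 1 kb of the TSS (vertical axis), by position group and for all protein-coding genes (horizontal axis), with 1 panel per target, 1 point per antibody and bars for the mean ± SD. The group from 15 to 25 Mb lies lowest of the 4 position groups in all 17 lists, with means of 59.5% for H3K4me1, 68.2% for H3K4me2 and 66.9% for H3K4me3.

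Next to other genes, the zinc finger genes had an H3K4me3 peak at the start site more often. The share of members with an H3K4me3 peak at the TSS was above that of all protein-coding genes in 8 of 8 lists, by 16.3 to 30.5 percentage points. It was also above that of the 1227 other protein-coding genes of chromosome 19 in 8 of 8 lists. It was above that of the 266 ZNF genes on other chromosomes in 7 of 8. By the mean covered part of the window, members were above these ZNF genes in 4 of 8 lists and below in 4. The means were 60.3% for members and 60.7% for ZNF genes elsewhere. By that measure members stayed above all protein-coding genes and the other genes of chromosome 19 in 8 of 8 lists. In the H3K4me1 lists the members lay below the other genes of chromosome 19 in 5 of 5, by 1.43 to 13.9 points. They lay above all protein-coding genes in 4 of 5, with a median difference of 7.74 points, and above ZNF genes on other chromosomes in 4 of 5. These differences have no test of their own.

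Counted gene by gene, 197 of the 249 members (79.1%) had a TSS peak in at least 5 of the 8 H3K4me3 lists, against a background of 52.9% of all genes. By group the counts were 42 of 48 under 15 Mb, 22 of 37 from 15 to 25 Mb, 54 of 64 from 30 to 50 Mb and 79 of 100 over 50 Mb. At least 3 of 5 H3K4me1 lists had a peak at 221 members (background 80.5%), with 22 of 37 in the pericentromeric group. All 22 lay outside the run of 12 genes described below, whose bounds were chosen after the values were seen. Of the 25 pericentromeric genes outside it, 88.0% passed this count and 76.0% passed that for H3K4me3. H3K4me3 and H3K4me1 passed these counts together at 187 members (background 50.7%), H3K4me3 alone at 10 (background 2.21%), H3K4me1 alone at 34 (background 29.8%) and neither at 18 (background 17.3%), of which 11 lay from 15 to 25 Mb. At least 3 of 4 H3K4me2 lists had one at 218 members (background 73.2%). Of the members, 38 share their TSS window with another protein-coding gene (background 15.6%), among them ZNF700, ZNF564, ZNF443, ZNF544 and ZNF473, and ZNF625 and ZNF625-ZNF20 have the same start, so a peak there cannot be assigned to 1 gene. A peak in all 17 lists was found at 118 members, or 47.4%, against 27.9% of all genes. In 0 of 8 H3K4me3 lists were 6 members, 3 from 15 to 25 Mb and 3 over 50 Mb, against 16.1% of all genes. The count for H3K4me3 did not rest on the 2 most extensive lists. Without Abcam ab8580 and EMD Millipore 07-473, 191 members (76.7%) had a peak in at least 4 of the other 6, against 51.9% of all genes. Of the 21 members found in exactly 2 H3K4me3 lists, 17 were in just those 2, as were 1739 of the 2015 such genes among all genes.

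The named members show how the lists behave at single promoters. ZNF93, whose protein is known to bind LINE-1 retrotransposons, lies at chr19:19900946-19935575 on the plus strand. Its TSS window was covered for 100%, 87.7%, 84.4%, 100% and 79.0% by the 5 H3K4me1 lists, for 100% by each of the 4 H3K4me2 lists and for 84.9% to 100% by the 8 H3K4me3 lists. All 17 antibodies thus placed peaks over most of this window. ZNF14, ZNF101 and ZNF431, in the same group, also had a peak in 17 of 17 lists, with mean H3K4me3 coverage of 82.6%, 69.9% and 82.5%. At the other end, ZNF729 (chr19:22286441-22317176, plus) was covered for 0% in every one of the 17, the 1 member of 249 with no H3K4 peak at the TSS (background 7.71%). ZNF676 (chr19:22179089-22196951, minus) had 1 TSS peak, for H3K4me2 with antibody 9725 of Cell Signaling Technologies, over 37.7% of the window.

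Farther along the chromosome the best covered members resembled each other. ZNF700 and ZNF564 under 15 Mb, ZNF428 and ZNF567 from 30 to 50 Mb, and ZNF544 and ZNF8 over 50 Mb had a peak in 17 of 17 lists, with mean H3K4me3 coverage between 94.3% and 100%. The genes with the fewest lists differed in kind. ZNF799 (chr19:12390016-12401271, minus) was covered in 5 H3K4me3 lists for 65.0% to 84.0% and in none of the H3K4me1 and H3K4me2 lists. Its neighbour ZNF443 had H3K4me3 in the same 5 antibodies, for 74.5% to 100%, and H3K4me2 in 1. The windows of these 2 were 77.1% and 80.1% unique. Both were absent from the list of Abcam ab8580, which holds 721215 peaks, and present in that of Abcam ab12209, which holds 14172.

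ZNF536, a brain-expressed repressor of neuronal differentiation, begins the group from 30 to 50 Mb with 4 CpG in its promoter. It had an H3K4me3 peak only in Abcam ab8580, over 14.1% of the window, and H3K4me1 in 2 lists, for 100% (Active Motif 39635) and 48.1% (EpiGentek A-4031-050). H3K4me2 was present in 3 of 4 lists, for 4.95% to 65.3%. ZNF829 was in 1 H3K4me1, 2 H3K4me2 and 3 H3K4me3 lists. Over 50 Mb, ZNF835 was in 1 H3K4me1 and 1 H3K4me3 list for 10.5% and 11.9% of the window. ZNF468 was in 2 H3K4me1 lists and in none for H3K4me2 and H3K4me3, with 66.5% of its window unique. The genes nearest to the group borders did not change evenly with position. ZNF333, the last under 15 Mb, and ZNF101, the first after it, were in 17 lists each. ZNF254, the last before 25 Mb, was in 17, and ZNF536, the first past 30 Mb, in 6. ZNF114, the last before 50 Mb, was in 10, and ZNF473, the first past it, in 17.

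Around the TSS the marks had different shapes, and in all 4 groups H3K4me3 was more frequent at 1000 bases downstream than at 1000 bases upstream. H3K4me3 peaks covered the TSS itself at 60.5% of genes from 15 to 25 Mb on average over the 8 lists, 82.0% under 15 Mb, 82.6% from 30 to 50 Mb and 73.4% over 50 Mb, against 49.3% of all genes. At 1000 bases downstream the 15 to 25 Mb value was 47.3% and at 1000 bases upstream 9.12%, while the groups under 15 Mb, 30 to 50 Mb and over 50 Mb had 53.4% and 26.6%, 49.6% and 32.6%, and 46.1% and 24.9%. All genes had 38.8% and 27.4%. At 5000 bases the order was the reverse in the 4 groups. The downstream and upstream values there were 9.38% and 13.5% under 15 Mb, and 6.42% and 9.12% from 15 to 25 Mb. They were 6.05% and 8.98% from 30 to 50 Mb, and 8.88% and 12.25% over 50 Mb. H3K4me1 dipped at the TSS, to 62.9%, 33.0%, 60.3% and 56.6% in the 4 groups in order of position, and stood at 90%, 52.4%, 80.3% and 77.0% at 1000 bases downstream. The median width of the H3K4me3 peaks that overlapped a TSS window ran from 1219 to 4433 bases over the 8 lists from 15 to 25 Mb, and from 1763 to 4937 bases over all genes.

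**Figure D2:**
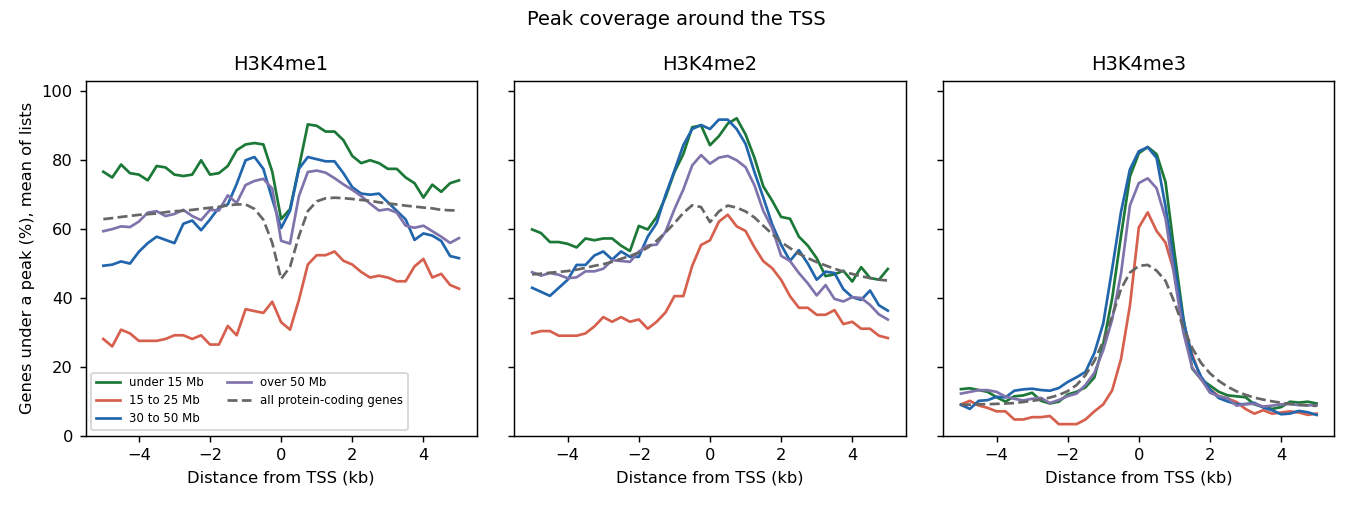
Percent of genes under a peak (vertical axis, mean of the lists of each target) against distance from the TSS in kb (horizontal axis), for the 4 position groups and all protein-coding genes, in 1 panel each for H3K4me1, H3K4me2 and H3K4me3. The H3K4me3 curve from 15 to 25 Mb reaches 60.5% at the TSS and stands at 9.12% at 1 kb upstream and 47.3% at 1 kb downstream.

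The second question was at which members H3K4me1 and H3K4me3 covered the TSS window unequally. For each of 18234 genes, the covered percent in the 5 H3K4me1 and 8 H3K4me3 lists was compared by a two-sided exact permutation test, with Benjamini-Hochberg adjustment over all genes and a threshold of 0.05. The smallest unadjusted p this design allows is 0.001554. Of 247 members tested, 43 (17.4%) were covered more by H3K4me1 and 20 (8.10%) more by H3K4me3, against 29.4% and 12.5% of all genes. Both shares lie below the background. The median difference, H3K4me1 minus H3K4me3, was 4.87 points over the members and 13.2 over all genes. The counts moved when 1 library was left out, which by construction coarsens the steps of p. They ran from 8 to 63 for H3K4me1 and from 10 to 23 for H3K4me3, the former at 8 to 10 without any 1 H3K4me1 antibody or without Abcam ab12209, Abclonal A2357, EMD Millipore 05-745R or Thermo Fisher PA5-40086. The latter stood at 10 to 13 without any 1 of those 4 or without Thermo Fisher 710795, Abcam ab8895 or antibody 5326 BF. All 5 H3K4me1 libraries were amplified for 8 cycles and run beside 1 input, whereas 3 H3K4me3 libraries had 12 cycles and 2 were run beside another input. With the libraries of 8 cycles alone the counts were 0 and 0, and with those beside the first input 7 and 17. With windows of 0.5 kb either side they were 19 and 34, and with 2.5 kb they were 155 and 1. At an unadjusted p under 0.05 they were 59 and 23 (background 34.5% and 15.3%), and with limma 54 and 24 (background 33.7% and 15.5%).

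The members covered more by H3K4me3 were spread over the groups, with 2 under 15 Mb, 3 from 15 to 25 Mb, 7 from 30 to 50 Mb and 8 over 50 Mb. All 20 had H3K4me3 in at least 5 lists. ZNF274, known to recruit H3K9 methylation to the 3′ ends of zinc finger genes, lies at chr19:58183061-58213562 on the plus strand. Its window was covered for 0%, 72.9%, 40.8%, 54.9% and 33.5% by the H3K4me1 lists, and for 78.9% to 100% by the 8 H3K4me3 lists. The groups did not overlap, the mean difference was -51.5 points, and the adjusted p of the exact permutation test was 0.0105. ZNF473, whose protein takes part in histone mRNA 3′ end processing, had means of 59.5% and 95.6% (difference -36.2 points, adjusted p = 0.0105, exact permutation test). ZNF8 had 80.1% and 99.8% (adjusted p = 0.0361, exact permutation test). With windows of 2.5 kb either side the differences of ZNF473 and ZNF8 had the opposite sign, at 24.1 and 37.5 points. From 15 to 25 Mb the 3 members of this class were ZNF681, ZNF66 and ZNF91. They were picked out after their values were seen, as were ZNF850, ZNF587B, ZNF154, ZNF556 and ZNF506 below.

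ZNF91, whose protein is known to bind SVA retrotransposons, lies at chr19:23357696-23395471 on the minus strand. Among the H3K4me1 lists 1 (EpiGentek A-4031-050) covered its window, for 51.3%, and 4 were at 0%. The 8 H3K4me3 lists covered 15.5% to 56.3%. The values overlap at the top, and the adjusted p was 0.0361 by the exact permutation test. ZNF850 had the largest such difference, -74.4 points (12.6% against 87.0%, adjusted p = 0.0105, exact permutation test).

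The 43 members covered more by H3K4me1 included 16 under 15 Mb, 12 from 30 to 50 Mb, 14 over 50 Mb and 1 from 15 to 25 Mb. H3K27me3 peaks lay at the TSS window of 39 of them, against 77.9% of all members and 73.9% of all genes. H3K4me3 was present in fewer than 5 lists at 16. ZNF587B (100% against 9.36%), ZNF154 (100% against 14.2%) and ZNF556 (100% against 14.4%) led, each with an adjusted p of 0.0105 in the exact permutation test. The 1 pericentromeric member was ZNF506, at 74.1% against 17.8% (adjusted p = 0.0393, exact permutation test).

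The same test of 4 H3K4me2 against 8 H3K4me3 lists called 0 of 246 members and 0% of all genes in either direction, since its smallest p, 0.00404, must be reached by many genes to pass the adjustment. At an unadjusted p under 0.05, 65 members were covered more by H3K4me2 and 2 more by H3K4me3, against 26.9% and 0.709% of all genes. With limma 0 members passed in either direction (background 3.26% and 0.116%).

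The third question concerned the 3′ ends, where the finger arrays are encoded. The 3′ window was the last 3 kb of the canonical transcript. H3K4me1 there was lowest near the centromere, and lower at the zinc finger genes than at the other genes of chromosome 19. From 15 to 25 Mb the share of genes with a peak was 32.4% with Active Motif 39635, 16.2% with Abcam ab8895, 21.6% with Thermo Fisher 710795, 37.8% with antibody 5326 BF and 27.03% with EpiGentek A-4031-050. Under 15 Mb the same antibodies gave 95.8%, 72.9%, 62.5%, 87.5% and 79.2%, and the ranges did not overlap. At least 3 of the 5 lists had a 3′ peak at 177 members (71.1%, background 77.7%), which were 42 of 48 under 15 Mb, 9 of 37 from 15 to 25 Mb, 48 of 64 from 30 to 50 Mb and 78 of 100 over 50 Mb. The 3′ window overlapped the TSS window of another gene at 4 members (background 3.93%), all over 50 Mb. The mean covered part of the window was 11.5% ± 12.0 from 15 to 25 Mb, 43.5% ± 30.8 under 15 Mb, 39.7% ± 28.2 from 30 to 50 Mb and 44.2% ± 25.3 over 50 Mb (SD, n = 5 antibodies). The wide SDs come with the broad peaks of Active Motif 39635, which alone covered 95.3% of the window under 15 Mb. Over all members the value was 38.1% ± 25.1, against 75.9% ± 11.8 for the other genes of chromosome 19 and 52.5% ± 17.2 for ZNF genes elsewhere. Members were below the other genes of chromosome 19 in 5 of 5 lists. Against all protein-coding genes they were below in 4 of 5 and above in 1, by 11.2 points, with a median difference of -26.6 points.

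Transcript length and uniqueness differ between the groups as well. The median transcript was 31969 bases from 15 to 25 Mb, against 19301, 22093.5 and 16870.5 in the groups under 15 Mb, 30 to 50 Mb and over 50 Mb. In transcripts longer than 20 kb the H3K4me1 coverage of the 3′ window was 10.9% ± 12.7 from 15 to 25 Mb, 42.7% ± 34.2 under 15 Mb, 32.9% ± 31.1 from 30 to 50 Mb and 38.3% ± 27.6 over 50 Mb. At 3′ windows that were at least 90% unique it was 14.5% ± 15.4, 43.9% ± 33.0, 40.8% ± 28.4 and 46.3% ± 25.8 in the same order of groups. The gap near the centromere was therefore present in both subsets.

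Along the transcript H3K4me1 coverage was lower toward the 3′ end at the zinc finger genes. Transcripts of 5 kb or more were divided into 10 equal parts. In the first of the 10 the H3K4me1 lists covered 81.9%, 47.2%, 73.3% and 68.0% of the sequence in the 4 groups in order of position. In the last of the 10 they covered 44.4%, 11.6%, 38.3% and 43.7%. The other genes of chromosome 19 had 74.8% at the start and 75.8% at the end.

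**Figure D3:**
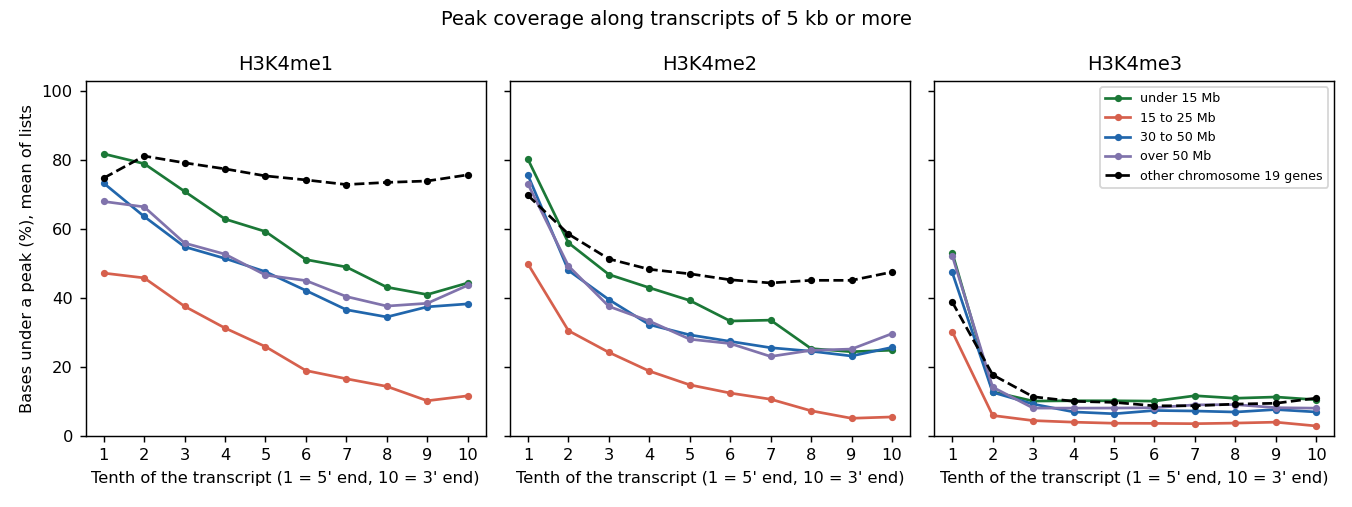
Percent of the transcript covered by peaks (vertical axis, mean of the lists of each target) in 10 equal parts of the transcript from the TSS to the 3′ end (horizontal axis), for the 4 position groups and the other genes of chromosome 19. H3K4me1 ends at 11.6% from 15 to 25 Mb, between 38.3% and 44.4% in the other zinc finger groups and at 75.8% in the other genes of chromosome 19.

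In the test across all genes, 73 of 237 members (30.8%) had a 3′ window covered more by H3K4me1 than by H3K4me3, against 74.5% of all genes. None was covered more by H3K4me3 (background 0.0937%). At an unadjusted p under 0.05 the counts were 78 and 0 (background 75.8% and 0.0996%), and with limma 80 and 0 (background 78.9% and 0.105%). The counts were 15 of 47 under 15 Mb, 3 of 26 from 15 to 25 Mb, 17 of 64 from 30 to 50 Mb and 38 of 100 over 50 Mb. Of the other genes of chromosome 19, 83.6% were called, and of ZNF genes elsewhere 54.7%. With the libraries of 8 cycles alone 41 members were called. Without Abcam ab8580, whose H3K4me3 list had a 3′ peak at 86.7% of members, 132 members were called. That antibody and EMD Millipore 07-473 (46.6%) stood apart from the other 6 H3K4me3 lists, which had a 3′ peak at 0.803% to 2.41% of members.

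ZNF8 shows the pattern of a called 3′ end. Its window was covered for 100%, 100%, 100%, 100% and 88.6% by the H3K4me1 lists. Among the H3K4me3 lists it was covered for 63.9% in Abcam ab8580, 8.1% in EMD Millipore 07-473 and 0% in the other 6 (difference 88.7 points, adjusted p = 0.0044, exact permutation test). ZNF428 behaved alike, at 100%, 86.8%, 89.7%, 100% and 67.7% for H3K4me1 (difference 83.0 points, adjusted p = 0.0044, exact permutation test). From 15 to 25 Mb the 3 called members were ZNF101, ZNF714 and ZNF431, of which ZNF714 was named after its values were seen. ZNF431 had 59.7%, 100%, 54.8%, 65.8% and 36.2% for H3K4me1 and 22.1% in 1 H3K4me3 list, Abcam ab8580, with 0% in the rest. ZNF93, so fully covered at its start, had 0% at its 3′ end in 3 H3K4me1 lists, 9.2% in 1 and 100% in Active Motif 39635.

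The 3 corrected lists were computed by the authors from the libraries of Abcam ab8895, ab7766, ab12209 and ab8580. At the zinc finger genes each held fewer TSS peaks than its source lists, and the gap was widest for H3K4me3. Corrected H3K4me1 was present at the TSS window of 174 of 249 members (69.9%, background 71.4%), in 43 of 48 genes under 15 Mb, 14 of 37 from 15 to 25 Mb, 49 of 64 from 30 to 50 Mb and 68 of 100 over 50 Mb. Corrected H3K4me2 was present at 166 members (66.7%, background 55.1%), with 11 of 37 from 15 to 25 Mb. Corrected H3K4me3 was present at 53 members (21.3%, background 18.1%), in 12, 8, 21 and 12 genes of the 4 groups in order of position. The uncorrected H3K4me3 lists of ab12209 and ab8580 had a peak at 75.1% and 91.6% of members. Of all 19962 protein-coding genes, the same uncorrected lists had a TSS peak at 10315 and 15027, against 3610 in the corrected H3K4me3 list. The drop for H3K4me3 was therefore not particular to the zinc finger genes.

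Single genes followed these counts. ZNF428 kept 87.6% of its TSS window in the corrected H3K4me3 list, and ZNF490 kept 82.9%. ZNF700, ZNF564, ZNF93, ZNF544, ZNF8 and ZNF274 were at 0% there and at 100% in the corrected H3K4me2 list. In the 3′ window, corrected H3K4me1 was present at 59.4% of members (background 70%) and at 16.2% from 15 to 25 Mb. Corrected H3K4me2 was present there at 26.5% of members and at 0 of 37 genes from 15 to 25 Mb (background 33.3%). Corrected H3K4me3 was present there at 29 members (background 8.18%).

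**Figure D4:**
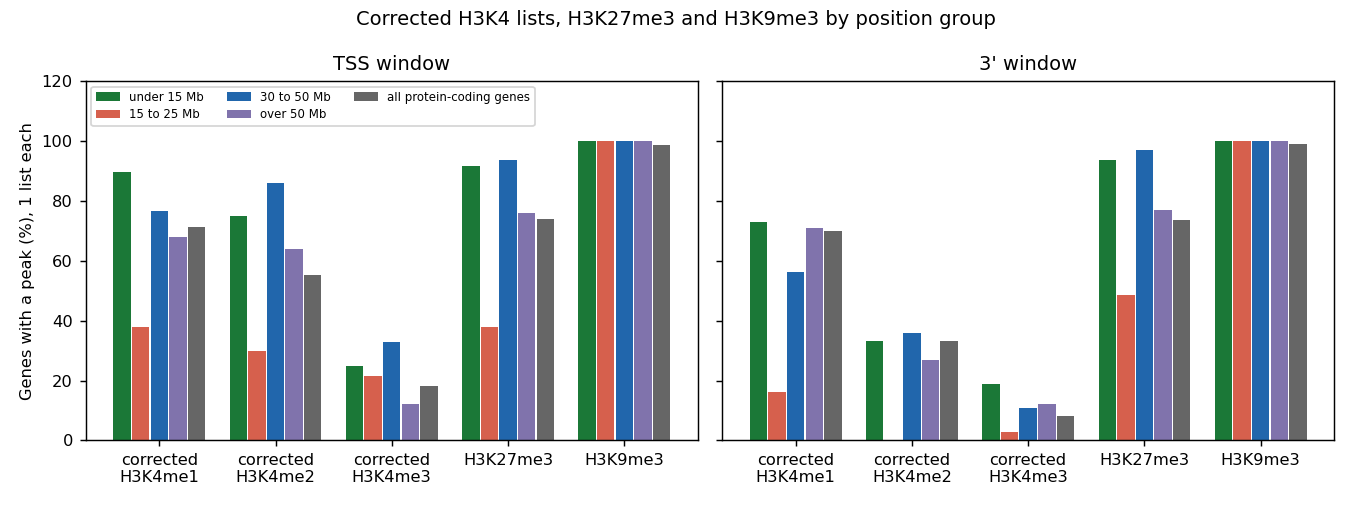
Percent of genes with a peak (vertical axis) at the TSS window (left) and in the 3′ window (right) in the 3 corrected lists and the H3K27me3 and H3K9me3 lists (horizontal axis), with 1 bar per position group and 1 for all protein-coding genes. H3K27me3 is at 37.8% of TSS windows from 15 to 25 Mb and at 76.0% to 93.8% in the other zinc finger groups, while H3K9me3 is at 100% in each group.

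At the TSS, the H3K27me3 shares ranged more widely over the 4 groups than those of any of the 17 H3K4 lists. This list had a peak at the TSS window of 44 of 48 genes under 15 Mb (91.7%), 14 of 37 from 15 to 25 Mb (37.8%), 60 of 64 from 30 to 50 Mb (93.8%) and 76 of 100 over 50 Mb (76.0%). All genes had 73.9% and the other genes of chromosome 19 had 51.4%. In the 3′ window the shares were 93.8%, 48.6%, 96.9% and 77.0%, with 73.5% over all genes. The peaks of this list are broad, with a median of 38922 bases on chromosome 19, so neighbouring genes can share 1 peak. There is 1 antibody for this mark, with no replicate check. Among the erythroid genes named above, it covered 100% of the TSS windows of GATA1, TAL1, LMO2, NFE2 and TFRC. It covered 30.6% at HBG1 and 0% at KLF1. A peak in this list was therefore not read as repression of a gene.

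H3K4me3 in at least 5 lists and H3K27me3 at the same TSS window were found together at 159 members (63.9%, background 40.6%). Counted only among genes with H3K4me3 in at least 5 lists, H3K27me3 was at 159 of 197 members and 8114 of 10558 genes. Those 2 shares are similar. By group the 159 members with both marks were 38 of 48, 11 of 37, 50 of 64 and 60 of 100 in order of position. H3K4me3 without H3K27me3 was found at 38 members (background 12.2%), of which 19 lay over 50 Mb and 11 from 15 to 25 Mb. Neither mark was found at 17 members (background 13.8%), and 12 of these 17 lay from 15 to 25 Mb. Overlap of peaks in a cell population does not show both marks on the same nucleosome.

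H3K9me3 could not separate the members in this list. It had a peak at the TSS and 3′ windows of 249 of 249 members, and at 98.7% and 98.9% of all genes. It covered the whole canonical transcript of 244 members (background 91.3%). The 5 exceptions included ZNF490, at 88.2%, and ZNF888, at 89.4% of the transcript. With 95.4% of the chromosome under its peaks, the list gave no contrast between promoters and 3′ ends.

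The pericentromeric genes were then read in order along the chromosome, and a run of 12 consecutive members stood out. Its bounds were chosen after the values were seen, so it is described and not tested. The run goes from ZNF208 (TSS at 22010943) to ZNF91 (TSS at 23395471) and spans 1.38 Mb. No member of it had H3K27me3 at the TSS or in the 3′ window (background 73.9% and 73.5%). None had H3K4me1 in at least 3 of 5 lists (background 80.5%). In at least 5 H3K4me3 lists were 3 of the 12 (background 52.9%), namely ZNF208 (6 lists), ZNF257 (7) and ZNF91 (8). The others, ZNF676, ZNF729, ZNF98, ZNF492, ZNF99, ZNF723, ZNF728, ZNF730 and ZNF724, were in 0 to 4. The mean TSS coverage of the 12 was 6.54% for H3K4me1 and 13.2% for H3K4me3.

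The genes on either side looked different. Of the 25 members outside the run, 19 (76.0%) had H3K4me3 in at least 5 lists and 22 (88.0%) had H3K4me1 in at least 3. H3K27me3 lay at the TSS of 14 (56.0%). Mean H3K4me1 coverage of the 3′ window was 16.7% outside the run and 0.61% in it. The 21 members from ZNF101 to ZNF43 had H3K4me3 in at least 5 lists at 15, H3K4me1 in at least 3 lists at 18 and H3K27me3 at the TSS of 14, with mean TSS coverage of 58.1% for H3K4me1 and 54.3% for H3K4me3. The 4 members past the run, ZNF675, ZNF681, ZNF726 and ZNF254, had H3K4me3 in 8 lists each and H3K4me1 in at least 3, but none had H3K27me3 at the TSS. In the 3′ window 2 of these 4 had H3K27me3. The mean TSS coverage of the 4 was 37.6% for H3K4me1 and 70.05% for H3K4me3. Within the run, uniqueness of the TSS window had a median of 94.4%, against 96.4% before it.

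The intervals as a whole, genes and spaces alike, showed the same split. H3K27me3 peaks covered 3.28% of the interval from ZNF208 to ZNF91 and 61.4% of the 2.17 Mb from ZNF101 to ZNF43. The H3K4me1 list of Abcam ab8895 covered 0.97% and 26.8%. The H3K4me3 list of Abcam ab8580 covered 6.25% and 34.8%. H3K9me3 covered 99.8% and 99.7%. All 17 H3K4 lists covered less of the interval from ZNF208 to ZNF91 than of the other. The bounds of the run were picked from these same lists, so this split is no separate support for it. The H3K9me3 values were nearly equal, in a list that covers 95.4% of chromosome 19 and leaves little room for a difference.

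**Figure D5:**
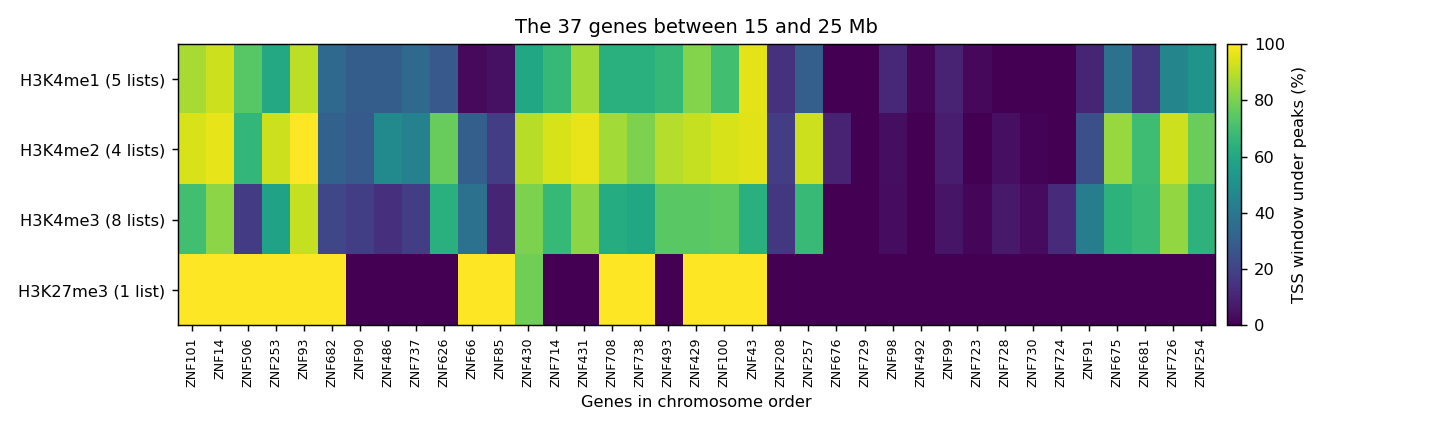
The 37 genes from 15 to 25 Mb in order along the chromosome (horizontal axis), with the percent of the TSS window under peaks as colour, as the mean of the H3K4me1, H3K4me2 and H3K4me3 lists and in the 1 H3K27me3 list. The 12 genes from ZNF208 to ZNF91 lack H3K27me3 at the TSS and average 6.54% for H3K4me1 and 13.2% for H3K4me3. The 4 genes after them average 70.05% for H3K4me3, without H3K27me3 at the TSS.

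Promoter letters were set beside these marks. Of the 25 pericentromeric promoters with CCGGAAG, 15 had H3K4me3 in at least 5 lists, and of the 12 without it, 7 had, which are nearly equal shares. Over all genes the shares were unequal, at 2367 of 2813 promoters with CCGGAAG and 8191 of 17149 without it. The median CpG count was 10 at the 22 with H3K4me3 and 14 at the 15 without it, whereas over all genes it was 28 with and 10 without.

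Lists related to the family were counted in the same way. Of 22 genes of KRAB cofactors and heterochromatin proteins, 19 had H3K4me3 in at least 5 lists (86.4%, background 52.9%), 18 had H3K4me1 in at least 3 (81.8%, background 80.5%) and 16 had H3K27me3 at the TSS (72.7%, background 73.9%). The latter 2 shares are near the background. In the H3K4me1 and H3K4me3 comparison at the TSS, 7 of the 22 were covered more by H3K4me3 (background 12.5%) and 0 more by H3K4me1 (background 29.4%). Among the 7 were CBX5, which encodes an HP1 protein (40.2% against 100%, adjusted p = 0.0105, exact permutation test), and MPHOSPH8, which encodes a subunit of the HUSH silencing complex. CBX5, CBX3 and PPHLN1, all among the 7, share their TSS windows with other protein-coding genes, so peaks there cannot be assigned to 1 gene. TRIM28 (chr19:58544064-58550715, plus) had H3K4me3 in 6 lists and no H3K27me3, and its difference of -44.8 points missed the threshold (adjusted p = 0.138, exact permutation test). SETDB1 had a peak in 17 of 17 lists. Of 15 chromosome 19 zinc finger genes with other symbols (ZFP, ZSCAN, ZIM and ZIK), 8 had H3K4me3 in at least 5 lists, a share of 53.3% that is near the background of 52.9%, and 13 had H3K27me3 at the TSS (background 73.9%).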

How the data were processed

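The deposited peak lists give positions on hg38 from the authors, and 17 of the 22 lists add a score per peak that the authors deposited without naming its scale; the other 5 hold positions only. Bowtie2, SAMtools, bedtools and MACS2 are named, without version or role, in the submitters' processing notes, while their settings were not given in the sources used here. Lists were read per antibody, overlapping peaks were merged, and the covered percent of TSS windows (1 kb either side of the GENCODE 44 canonical TSS) and of 3′ windows (last 3 kb, at least 1 kb past the TSS and 500 bases long) was computed for 19962 genes of the autosomes and X (19088 with a 3′ window). Genes at 0 in all lists compared were not tested. Exact permutation tests were run over antibodies for all genes, with limma 3.58.1 as an alternative, and were tested on simulated data. With the score, only peaks at or above the median of each list were kept as an alternative.

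The members and gene lists were chosen with earlier results of these data known. The named genes are, per group, the 2 members with a peak in the most of the 17 lists and the 2 with the fewest, the members with the largest and smallest part of the transcript under H3K9me3 (mostly ties at 100%, broken by position or length), ZNF274, TRIM28, SETDB1 and CBX5. Other genes named were picked after their values were seen. Depth is unknown, so no interval from counts is printed, and a binomial interval served only to label alternatives for single lists. Replicate numbers follow accession order and pair nothing. Promoter sequences come from hg38. The result for 1 marker gene and some promoter sequences are not reported here. Python 3.11.15, NumPy 2.4.6, pandas 2.3.3, SciPy 1.17.1 and R 4.3.3 were used.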

Additional observations from a re-analysis of the deposited data

Results flagged for a closer look

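A value was looked at again where 1 antibody lay far from the others of its target within a position group. Of 30 such sets of values 3 had one, and chance alone sets apart about 1 in 20. Abcam ab8895 had a TSS peak at 93.75% of the genes under 15 Mb, where the other 4 H3K4me1 antibodies all had 95.8%, a difference of 1 gene. The same antibody had a TSS peak at 76.0% of the genes over 50 Mb, where the others had 89.0% to 93%. Abcam ab8580 had an H3K4me3 peak in the 3′ window of 48.6% of the genes from 15 to 25 Mb, where the other 7 had 0% to 16.2%.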

How the results depend on the processing

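No paired analysis was possible because replicate numbers only follow the order of accession and each antibody has 1 library. Across the settings other than leaving out 1 antibody, 238 shares and counts stayed the same, 22 shares moved, and 4 counts became stronger and 10 weaker. A count stayed the same when it was within a fixed ratio of the main count. For a share over several antibodies the limit was 1 SD between antibodies. For the corrected, H3K9me3 and H3K27me3 lists, with 1 list each, it was a binomial interval over genes. That interval holds no spread between antibodies. Of the differences at single named genes, 95 kept their call, 19 became weaker and 2 reversed. At the TSS, 43 members were covered more by H3K4me1 and 20 more by H3K4me3. These became 19 and 34 with 0.5 kb windows, 155 and 1 with 2.5 kb windows, 26 for H3K4me1 with peaks at or above the median score, 7 for H3K4me1 with the libraries run beside 1 input, and 0 and 0 with the libraries amplified for 8 cycles. Without Abcam ab8580 and EMD Millipore 07-473, added after seeing the data, they were 68 and 10. Leaving out 1 antibody gave 8 to 63 and 10 to 23. With 2.5 kb windows ZNF8 (37.5 points) and ZNF473 (24.1 points) reversed. For the 73 members called in the 3′ window, the count was 40 with peaks at or above the median score, 41 with the libraries of 8 cycles, 23 among transcripts over 20 kb (added after seeing the data), 141 without Abcam ab8580 and EMD Millipore 07-473, and 49 to 132 leaving out 1 antibody. Fewer libraries or genes make the steps of p coarser by construction; otherwise the cause was not tested. H3K4me2 against H3K4me3 called 0 members when any 1 antibody was left out, as the full test did. With fewer lists the smallest possible p is larger, so this 0 does not speak to stability.

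The share of members with a TSS peak moved most when a peak had to cover a fraction of at least 0.5 of the window. H3K4me1 was then at 85.8% under 15 Mb, 41.6% from 15 to 25 Mb, 78.4% from 30 to 50 Mb and 73.8% over 50 Mb; H3K4me2 at 91.7%, 57.4%, 91.8% and 81.0%; H3K4me3 at 52.4% from 15 to 25 Mb and 76.4% from 30 to 50 Mb; corrected H3K4me1 at 57.8% and 54.0% in the last 2 groups. With peaks at or above the median score, H3K4me1 was at 92.9% under 15 Mb and 81.2% from 30 to 50 Mb, H3K4me2 at 92.2% and 91.4% in the same groups, and H3K4me3 at 51.4% from 15 to 25 Mb and 72.5% from 30 to 50 Mb. With 0.5 kb windows H3K4me1 under 15 Mb was at 92.1%, and with the 5′ end of the gene as TSS H3K4me2 from 30 to 50 Mb was at 90.6%. In windows at least 90% unique, added after seeing the data, H3K4me1 and H3K4me2 under 15 Mb were at 99.5% and 97.6%. Leaving out 1 antibody, H3K4me1 shares ran from 95.3% to 95.8% under 15 Mb, 55.4% to 63.5% from 15 to 25 Mb, 86.3% to 90.6% from 30 to 50 Mb and 86.8% to 91.0% over 50 Mb; H3K4me3 shares from 15 to 25 Mb ran from 64.1% to 69.9%.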
